A study of Homo sapiens with 2 samples.

Results

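The 41 genes described here encode enzymes that cut the proteins of the extracellular matrix and the cell surface, their inhibitors, and a receptor and an inducer of such enzymes. They were taken by gene symbol from a list of 30 proteases, 9 inhibitors and 2 other members, out of 33629 genes with a value in either library. The cells were LM3, an established line of human hepatocellular carcinoma, and their poly-A RNA was read in 1 wild-type library and 1 library labelled NCOA5 knockout. NCOA5 is a coregulator of nuclear receptors, and the title of the series concerns the switch from epithelial to mesenchymal state, growth and migration. How the knockout was made, and whether the "KO-1" of its title marks 1 clone, is not stated in the labels. The labels name no treatment of either culture. Each genotype has 1 library, so nothing could be tested, and every difference below is one between these libraries.

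The matrix metalloproteases (MMPs) are zinc enzymes made as inactive precursors and switched on by the removal of a propeptide. Secreted MMPs cut collagens, gelatin and other matrix proteins, while membrane-type MMPs and the ADAM proteases work at the cell surface, where ADAMs release growth factors and adhesion proteins. The tissue inhibitors of metalloproteases (TIMPs) block the active site of these enzymes, serpins trap serine proteases, and urokinase at its surface receptor starts the plasmin cascade. In the liver this system is known for its part in fibrosis and in tumour invasion. Protein and enzyme activity were not measured here.

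Levels were deposited as FPKM (fragments scaled to transcript length and library size) of each transcript start, transcript end and splicing event, and a gene's level was the larger of its summed start and summed end values. The deposited values carry no counts, so the depth is unknown and no interval is given. An exact 0 can be a failed estimate. ATP5H was listed at 0 in wild type against 301 FPKM in the knockout-labelled library, and ATP5L at 78.7 FPKM in wild type against 0. JUN and JUND were listed at 0 in both libraries, and why was not tested. The targeted gene did not have a lower total in the knockout-labelled library: NCOA5 stood at 20.03 FPKM in wild type against 25.4 FPKM in the knockout-labelled library. That library lists NCOA5 at 11.9 FPKM with exon 3 in full, at 3.97 FPKM with a shortened exon 3 and at 9.55 FPKM without it. The wild-type table lists no event of this exon, with or without it. Of 9 hepatocyte markers 5 reached 1 FPKM, with a summed level of 41.0 FPKM in wild type against 48.0 FPKM in the knockout-labelled library, and APOA1, APOB, TTR and SERPINA1 stayed below 1 FPKM in both. The 7 fibroblast markers summed to 15.2 and 29.6 FPKM, most of it LUM, the 5 endothelial markers to 2.88 and 6.61 FPKM, and the 7 leukocyte markers to 0.972 and 1.91 FPKM, with CD14, CD163, MPO and ELANE at 0 in both. Their part in the results below was not tested.

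A few members made up most of the transcript level of the system, in the same order in both libraries. The highest were CTSL, the lysosomal cysteine protease cathepsin L, BSG, the cell-surface MMP inducer basigin, CTSB, cathepsin B, and TIMP1. These 4 genes held 56.7% of the members' summed FPKM in wild type against 53.6% in the knockout-labelled library. At the other end 5 members, namely MMP3, MMP9, MMP11, MMP19 and ADAMTS9, were listed at 0 in both libraries. A further 8 stayed below 1 FPKM in both, and 28 members reached 1 FPKM in at least 1 library and are called measured here. All 9 inhibitors were measured, against 17 of 30 proteases, beside 10826 of all 33629 genes. Of 110 other genes of the protease system 48 were measured, and of the 26 inhibitors among them 11 were. The members were chosen with earlier results of these data known, so these counts describe the list.

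**Figure D1:**
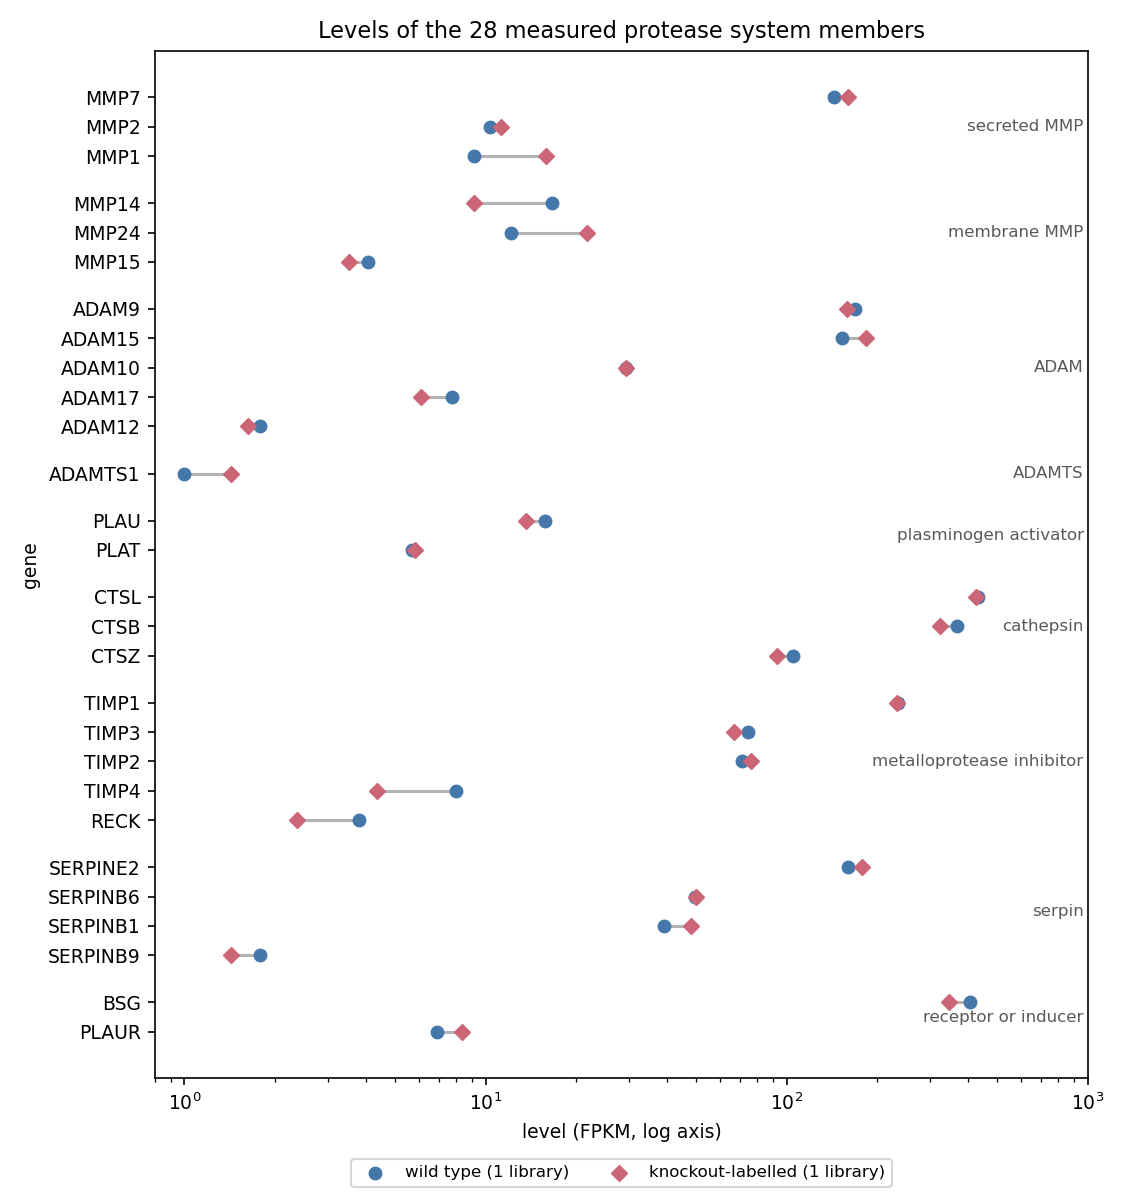
Level of each measured member in FPKM, on a log axis, grouped by role; the circle is the wild-type library and the diamond the knockout-labelled library, 1 library each, joined by a grey line. Most pairs nearly coincide, and the wide gaps are those of MMP1 (9.18 and 15.9 FPKM), MMP14 (16.6 and 9.14), MMP24 (12.2 and 21.8), TIMP4 (8.01 and 4.35) and RECK (3.80 and 2.37).

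No measured member differed by 2-fold between the libraries on the scale used here. In bulk RNA such as this, fewer cells with a transcript and less of it per cell cannot be told apart. Ratios are on a log2 scale, knockout-labelled over wild type with 1 FPKM added to both values, and the calls rest on size, with 2-fold as the threshold. This scale understates differences of low genes. The 8 members below 1 FPKM in both libraries cannot reach 2-fold on it, though their plain ratios ran from 0.112 (MMP28) to 4.39 (MMP13). Of the 28 measured members, 0 were higher and 0 were lower, where 2.87% of all 10826 measured genes were higher and 3.8% were lower (6.67% in either direction). These shares include genes listed at 0 in 1 library, and no measured member was so listed. Without such genes 126 of 10442 were higher and 212 were lower. At 1.5-fold, 2 members were higher (MMP1 and MMP24) and 2 were lower (MMP14 and TIMP4), beside 6.5% and 8.14% of all measured genes. Within 1.2-fold lay 20 of the 28 members, beside 60.7% of all measured genes. The 13 measured members that stayed under 20 FPKM had a median ratio size of 0.24, beside 0.23 for all 6603 genes in that range. The 15 members of 20 FPKM or more had 0.15, beside 0.17 for all 4223 such genes. The spread of the members was thus close to that of genes at their level.

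Among the 10 secreted MMPs, 3 were measured and all 3 had positive ratios, where 48.3% of 10281 measured genes outside the members had negative ones. MMP7, matrilysin, a short MMP that lacks the hemopexin domain and cuts many matrix and surface proteins, stood at 144 FPKM in wild type against 160 FPKM in the knockout-labelled library, with a log2 ratio of 0.15. It alone made up 72.9% of the summed MMP level in wild type against 72.0% in the knockout-labelled library. MMP1, the interstitial collagenase (ENSG00000196611.4, chr11:102789920-102798160 on hg38, minus strand), was at 9.18 FPKM in wild type against 15.9 FPKM in the knockout-labelled library, with a log2 ratio of 0.73. Its start and end sums were equal within each library, and the same start and end were listed in both, so its ratio does not come with a difference in listed forms. MMP2, gelatinase A, which cuts denatured collagen and type IV collagen, stood at 10.4 and 11.3 FPKM, with a log2 ratio of 0.11. MMP10, stromelysin 2, was at 0.178 and 0.199 FPKM, MMP13, collagenase 3, at 0.0216 and 0.0949, and MMP28, epilysin, at 0.555 and 0.0624, all below 1 FPKM in both libraries. MMP9, the other gelatinase, was listed at 0 in both.

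MMP1, MMP3, MMP7, MMP10 and MMP13 lie in 1 cluster of MMP genes on chromosome 11, yet their levels there ran from listed at 0 to 160 FPKM. The 150 bases before the RefSeq start (GRCh38.p14) were searched for the AP-1 motif TGAGTCA, read as TGACTCA from the other strand, and the TATA motif TATAAA, read as TTTATA from the other strand, which are known promoter elements of several MMP genes. The first 2 sequences below, MMP7 at chr11:102530748-102530897 and MMP10 at chr11:102780629-102780778, both minus strand, are shown because both genes lie in this cluster with very different levels. The third, MMP14 at chr14:22836435-22836584, plus strand, is shown as the membrane-type MMP with the largest negative ratio. Capitals mark the motifs.
MMP7 upstream: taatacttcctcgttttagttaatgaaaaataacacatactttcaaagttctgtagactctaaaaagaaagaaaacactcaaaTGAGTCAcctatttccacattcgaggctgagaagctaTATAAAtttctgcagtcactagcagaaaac
MMP10 upstream: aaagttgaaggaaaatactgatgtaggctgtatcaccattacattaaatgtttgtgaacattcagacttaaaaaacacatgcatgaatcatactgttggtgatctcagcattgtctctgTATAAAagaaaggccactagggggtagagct
MMP14 upstream: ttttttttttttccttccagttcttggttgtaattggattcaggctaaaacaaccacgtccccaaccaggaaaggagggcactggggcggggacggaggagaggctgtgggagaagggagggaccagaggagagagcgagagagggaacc

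MMP7 held an AP-1 match at −67 and a TATA match at −30 from its start, in a stretch of 32.7% G and C. MMP10 held the TATA match at −31 and no AP-1 match, and MMP14, at 54.0% G and C, held neither. An AP-1 match was found in 1 of the 26 members with a promoter entry, beside 2.89% of 35116 promoters, and a TATA match in 3 members (MMP7, MMP10 and SERPINB9), beside 6.71%. MMP1, MMP3 and MMP13 had no entry. The listed start of MMP7 fell on the RefSeq start in both libraries, so the window shown is the one before the transcript measured. The matches are a description of the letters in this window.

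Of the 5 membrane-type MMPs, 3 were measured, and they lay on both sides of 0. MMP14, which cuts collagens at the cell surface and activates the precursor of MMP2 with the help of TIMP2 (ENSG00000157227.12, chr14:22836557-22849027, plus strand), was listed at 16.6 FPKM in wild type against 9.14 FPKM in the knockout-labelled library, with a log2 ratio of −0.79. Both values rest on the same single start, and its ends were listed at 0 in both libraries. With MMP2 nearly level, the ratio of MMP2 to MMP14 transcript was 0.625 in wild type against 1.23 in the knockout-labelled library, and that of TIMP2 to MMP14 was 4.28 and 8.37. The TIMP2 level is its summed starts, 70.9 FPKM in wild type, where its largest single event held 95.1 FPKM. In the knockout-labelled library both stood at 76.5 FPKM. With the largest event the wild-type TIMP2 ratio would be higher and the gap between the libraries smaller. MMP15, also membrane-bound, stood at 4.06 and 3.53 FPKM, with a log2 ratio of −0.16. MMP16 was at 0.0049 and 0.0169 FPKM and MMP17 at 0.339 and 0.144 FPKM, both below 1 in both libraries.

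MMP24, a membrane-type MMP known from neurons (ENSG00000125966.9, chr20:35226654-35277000, plus strand), was listed at 12.2 FPKM in wild type against 21.8 FPKM in the knockout-labelled library, with a log2 ratio of 0.79. The 2 values belong to different starts. In wild type all of it came from the annotated start at 35226654. In the knockout-labelled library that start was listed at 0, and all of the level came from a start at 35263449, 36795 bases downstream, with a first exon of 59 bases that overlaps no annotated exon of MMP24. Of the 9 annotated exons 4 lie before this start and 5 after it. The antisense gene MMP24OS overlaps the locus, and since the use of strand is not stated, reads of the pair cannot be told apart. Both libraries share the last exon (35274272 to 35277000), at 12.2 and 21.8 FPKM. The ratio of MMP24 is therefore one between forms with different starts.

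Of the 7 ADAM proteases 5 were measured, from high (ADAM9 and ADAM15) to low (ADAM17 and ADAM12), and none of the 5 lay beyond 1.5-fold. ADAM9, a surface sheddase, stood at 168 FPKM in wild type against 159 FPKM in the knockout-labelled library (log2 ratio −0.084), and ADAM15, which carries an integrin-binding motif, stood at 153 and 183 FPKM (0.26). ADAM17, which releases tumour necrosis factor and ligands of the EGF receptor, stood at 7.74 and 6.10 FPKM (−0.30). ADAM12, a sheddase of a heparin-binding growth factor, was low at 1.78 and 1.63 FPKM (−0.083). ADAM8 (0.327 and 0.335 FPKM) and ADAM19 (0.625 and 0.199) were below 1 FPKM in both. Of the ADAMTS proteases, secreted relatives that cut proteoglycans and procollagens, ADAMTS1 reached 1.42 FPKM in the knockout-labelled library and 1.00 in wild type (0.28), and ADAMTS6 was at 0.289 and 0.0522 FPKM.

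ADAM10, the sheddase that starts Notch receptor cleavage and releases cadherins (ENSG00000137845.14, chr15:58588807-58749978, minus strand), had the same total level in both libraries but not the same splice forms. The total was 29.2 FPKM in wild type against 29.4 FPKM in the knockout-labelled library, with a log2 ratio of 0.0066. In the knockout-labelled library the whole level, 29.4 FPKM, was the full coding form. In wild type that form held 1.76 FPKM, or 6.03% of the gene. A form with an added exon held 17.3 FPKM, or 59.2%, and a form without an exon of 159 bases held 10.2 FPKM, or 34.8%. Both of these were listed at 0 in the knockout-labelled library, so inclusion of the 159-base exon was 65.2% in wild type against 100% in the knockout-labelled library. The 159-base exon (chr15:58679124-58679282, minus strand) is shown in the sense of the transcript, from GENCODE 29 on hg38, as the one coding exon of the members, among pairs of at least 5 FPKM in both libraries, whose inclusion differed by 10 percentage points or more. It is in lower case throughout since no part is singled out.
ADAM10 159-base exon: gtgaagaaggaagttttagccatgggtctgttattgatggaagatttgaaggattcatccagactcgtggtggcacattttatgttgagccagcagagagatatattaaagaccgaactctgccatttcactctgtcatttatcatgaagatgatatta

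The 159-base exon is coding and spans 53 codons in length, from codon 109 to codon 162, in the part of the protein that is removed when the enzyme matures. Its loss keeps the reading frame. The added exon is annotated in 1 transcript, which is not coding. Across the members 34 skipped-exon pairs in 12 genes had at least 5 FPKM in both libraries, and the 2 in ADAM10 were the ones that differed by 10 points or more, beside 10.5% of all 12418 such pairs. Under that minimum, and named after its values were seen, a PLAT exon (42188934 to 42189071 on chromosome 8) had 3.23 FPKM with and 0.931 FPKM without it in wild type, against 5.84 FPKM with it and 0 without in the knockout-labelled library.

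The plasminogen activators were low to moderate in level. PLAU, urokinase, stood at 15.8 FPKM in wild type against 13.6 FPKM in the knockout-labelled library (log2 ratio −0.20). Its last exon was listed from 73916389 to 73916430 in wild type and from 73916389 to 73917349 in the knockout-labelled library. The PLAU values thus belong to forms of different listed length. PLAU lies on chromosome 10, where the 410 other measured genes had a median of −0.19 and 73.4% lay below 0, and the part of this in its value was not tested. Its coding exon of 28 bases was included at 80.5% and 80.4%. PLAT, the tissue-type activator, stood at 5.69 and 5.84 FPKM (0.032), but these are unlike events, the end sum in wild type and the start sum in the knockout-labelled library. Its single start stood at 4.17 and 5.84 FPKM, with a log2 ratio of 0.40. Its end was not listed in the knockout-labelled library, so end events alone gave −2.74. PLAUR, the urokinase receptor, stood at 6.92 and 8.36 FPKM (0.24). A PLAUR start at 43668320 on chromosome 19 held 24.4% of its level in wild type (1.69 FPKM) and was listed at 0 in the knockout-labelled library, where the start at 43670166 held all of it.

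The 3 cathepsins, lysosomal proteases that tumour cells also secrete, were the highest proteases as a group, at 60.9% of the summed protease level in wild type against 57.5% in the knockout-labelled library. CTSL stood at 431 FPKM in wild type against 427 FPKM in the knockout-labelled library (log2 ratio −0.014). CTSB stood at 368 and 323 FPKM (−0.19), and CTSZ, a carboxypeptidase, at 105 and 92.7 FPKM (−0.18). All 3 lay below 0 by less than 1.2-fold, where 48.3% of 10281 placed measured genes outside the members lay below 0. CTSB is known for optional exons in its 5′ untranslated region, and a form without them was listed at 186 FPKM in wild type against 145 FPKM in the knockout-labelled library. Inclusion of its 88-base untranslated exon was 39.3% and 43.1%, and that of its 74-base untranslated exon was 24.7% and 31.8%, against the same form. Where only rows that name 1 gene are used, CTSB and ADAM12 come to 8.34 and 1.39, since their wild-type rows lie in loci of several genes. BSG, the inducer, stood at 408 and 347 FPKM (−0.23).

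Among the 5 metalloprotease inhibitors the abundant ones were nearly level, and the low ones had lower values in the knockout-labelled library. TIMP1 stood at 235 FPKM in wild type against 232 FPKM in the knockout-labelled library (log2 ratio −0.020) and made up 60.5% and 61.1% of the summed TIMP level. TIMP3, which binds to the matrix and also blocks ADAM17, stood at 74.3 and 67.0 FPKM (−0.15). TIMP2 stood at 70.9 and 76.5 FPKM (0.11), though its largest single event, 95.1 and 76.5 FPKM, gave −0.31. RECK, a membrane-anchored inhibitor of several MMPs, stood at 3.80 and 2.37 FPKM (−0.51), from the same starts and ends in both.

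TIMP4 (ENSG00000157150.4, chr3:12153051-12159351, minus strand) was listed at 8.01 FPKM in wild type against 4.35 FPKM in the knockout-labelled library, with a log2 ratio of −0.75. It had the largest ratio in size of the 9 inhibitors, and its last exon was listed with different ends. In wild type that exon ran from 12153051 to 12153712, or 662 bases. In the knockout-labelled library it ran from 12148915 to 12153712, or 4798 bases, 4136 more. The TIMP4 values thus belong to forms of different length, and the length behind each FPKM is not stated. TIMP4 lies within SYN2, which runs on the other strand.

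Of the 4 serpins 3 lay above 0, where 48.3% of 10281 placed measured genes outside the members lay below it. SERPINE2, protease nexin 1, which inhibits thrombin, urokinase and plasmin, stood at 161 FPKM in wild type against 179 FPKM in the knockout-labelled library (log2 ratio 0.15). It lies on chromosome 2 beyond 180 megabases, where the 195 other measured genes had a median of −0.19. SERPINB1, an intracellular inhibitor of neutrophil proteases, stood at 39.2 and 48.3 FPKM (0.29). Of this, 8.03 FPKM came from a first exon listed from 2842006 to 2841597 on chromosome 6, a start event not listed in wild type. The other first exon has the same outer end, 2842006, but stops at 2841812, and stood at 39.2 and 40.3 FPKM. SERPINB6, which inhibits cathepsin G, was level at 49.8 and 50.1 FPKM (0.0084), with its 3 starts at 36.1%, 21.7% and 42.2% in wild type and 42.4%, 25.0% and 32.6% in the knockout-labelled library. SERPINB9, the granzyme B inhibitor, was low at 1.78 and 1.43 FPKM (−0.19).

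Set against each other, proteases and inhibitors had the same median ratio to within 0.01 on the log2 scale. The 17 measured proteases had a median log2 ratio of −0.014, with 8 above and 9 below 0. The 9 inhibitors had a median of −0.020, with 4 above and 5 below 0, and all measured genes had 0.010. The difference of the medians was 0.0063. The protease levels summed to 1486 FPKM in wild type against 1466 FPKM in the knockout-labelled library, and the inhibitor levels to 644 and 661 FPKM, so proteases stood at 2.31 and 2.22 times the inhibitors. Of the metalloprotease system alone, the MMPs summed to 197 and 222 FPKM and the TIMPs to 388 and 380 FPKM, a TIMP to MMP ratio of 1.97 in wild type against 1.71 in the knockout-labelled library. All of these sums are of transcript levels per length, and the MMP and TIMP sums rest mainly on MMP7 and TIMP1. Behind the higher MMP sum stood MMP7 (144 and 160 FPKM), MMP1 (9.18 and 15.9) and MMP24 (12.2 and 21.8, from different starts). MMP14 and MMP15 ran the other way. The wild-type TIMP sum takes TIMP2 at 70.9 FPKM, where its largest single event held 95.1 FPKM.

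**Figure D2:**
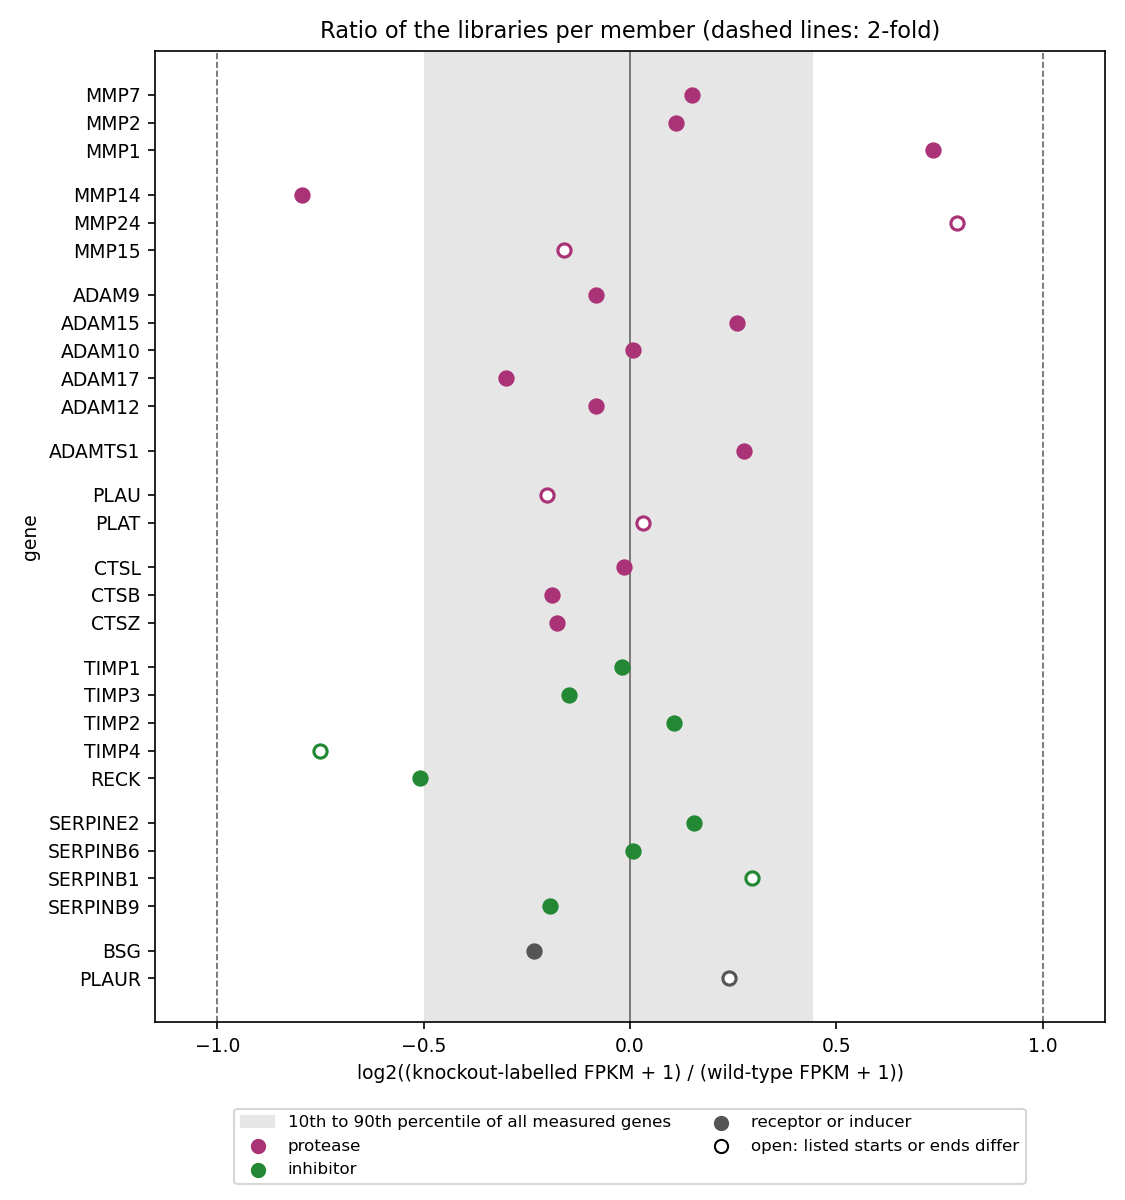
The log2 ratio of each measured member, knockout-labelled over wild type with 1 FPKM added to both, coloured by role; the grey band runs from the 10th to the 90th percentile of all measured genes (−0.50 to 0.44), dashed lines mark 2-fold, and open circles mark members whose listed starts or ends differ between the libraries. MMP1 and MMP24 lie above the band and MMP14, TIMP4 and RECK below it, and all 28 lie inside the dashed lines.

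The same starts and ends above 0 were listed in both libraries for 21 of the 28 measured members (75.0%), beside 56.1% of all measured genes. Of the 722 genes called at 2-fold in either direction, 15.0% had the same listing. A gene listed at 0 in 1 library cannot have the same listing, which fixed part of this share in advance. Without such genes 126 were higher and 212 lower, and with the same listing 37 and 71. No measured member was listed at 0 in either library, so the 75.0% and the 56.1% are of unlike sets. The 7 members with a different listing were MMP15, MMP24, PLAU, PLAT, TIMP4, SERPINB1 and PLAUR. Of the 4 members beyond 1.5-fold, MMP1 and MMP14 had the same forms in both libraries and MMP24 and TIMP4 did not. Among 16 members with at least 2 listed starts and a summed start level of at least 5 FPKM in both libraries, 2 (MMP24 and PLAUR) had a start whose share differed by 20 points or more, or 12.5%, beside 21.6% of all 6113 such genes. In these counts starts and ends were told apart by the splice junction of the first or last exon. Ends that share a junction but differ in length, such as those of PLAU, counted as the same and could not show a difference. Among 6 members with at least 2 ends listed at different junctions and the same minimum there were 0, beside 12.8% of 1587 genes. Under that minimum, and named after their values were seen, MMP15 had 2.69 of its 4.06 FPKM in wild type from a start at 58025360 on chromosome 16 that was not listed in the knockout-labelled library. ADAMTS1 had 0.357 of 1.00 FPKM in wild type from its start at 26843060 on chromosome 21, against 1.19 of 1.42 FPKM in the knockout-labelled library. RECK had 2 ends in both libraries, at 2.03 and 1.77 FPKM in wild type against 0.962 and 1.41 FPKM in the knockout-labelled library. TIMP2 (66.9% and 59.5% from the start at 78925387 on chromosome 17), MMP2 (64.8% and 72.0% from the start at 55479998 on chromosome 16) and CTSL (85.1% and 85.5% from its leading start) used 2 starts in both libraries. The leading start lay within 300 bases of the RefSeq start for 15 of 21 members in each library.

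**Figure D3:**
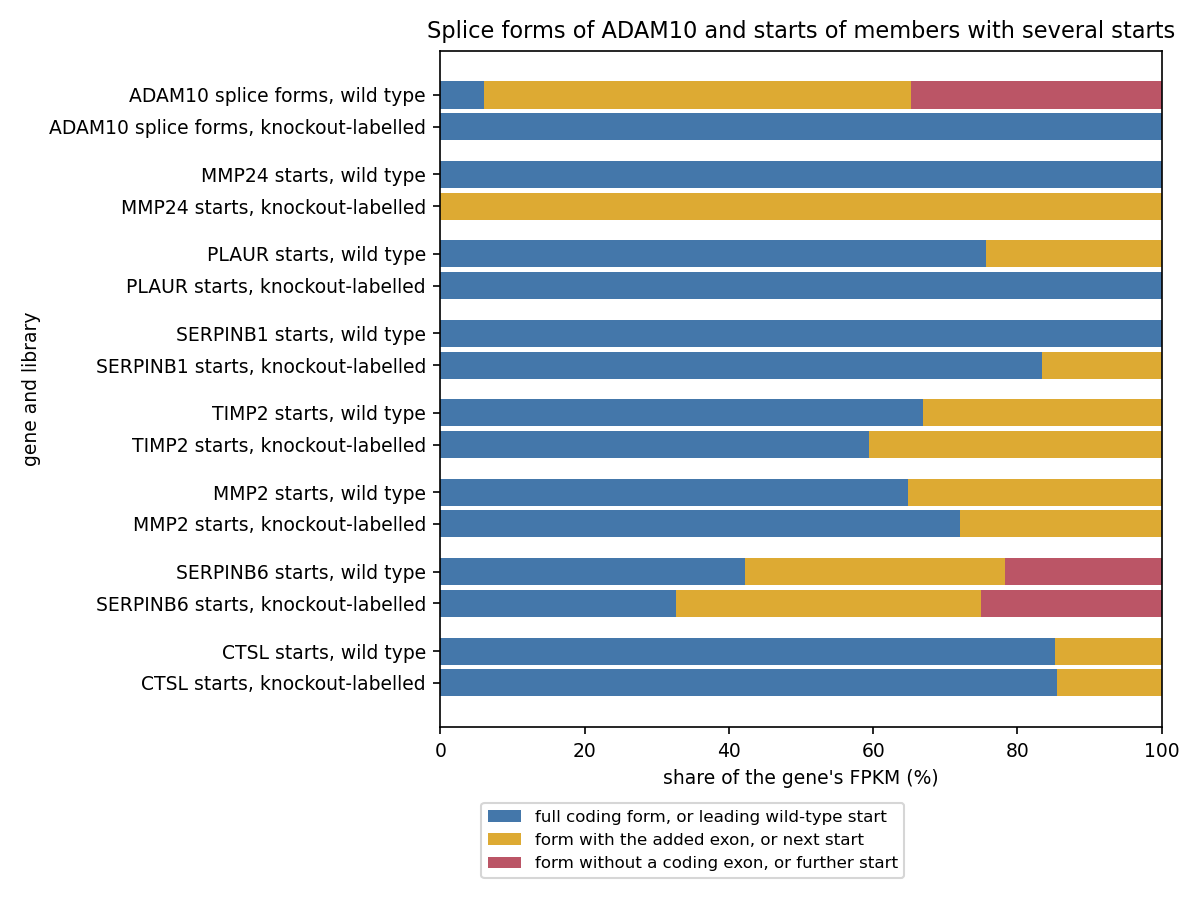
Share of each gene's FPKM by splice form (ADAM10) or by transcript start (the other genes), with a wild-type bar above a knockout-labelled bar for each gene, 1 library each. Starts are told apart by the splice junction of the first exon. ADAM10, MMP24, PLAUR and SERPINB1 differ in the forms they list, while TIMP2, MMP2, SERPINB6 and CTSL keep several starts in both.

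Of 110 other genes of the protease system, chosen by family, 109 had a value and 48 were measured. They had a median log2 ratio of −0.045, with 21 above and 27 below 0. At 2-fold 2 were higher and 2 lower, beside 2.87% and 3.8% of all measured genes. ADAMTS12, a secreted ADAMTS protease, stood at 10.2 FPKM in wild type against 3.44 FPKM in the knockout-labelled library (−1.34). TMPRSS2, a membrane-bound serine protease, stood at 2.19 and 5.60 FPKM (1.05). The other 2, both under 5 FPKM and named after their values were seen, were SLPI, an inhibitor of leukocyte elastase, at 1.44 and 4.91 FPKM (1.28), and SERPINA3, antichymotrypsin, at 1.83 and 0.0305 FPKM (−1.46). None of the 8 other MMPs on the list was measured.

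Among the other inhibitors 8 of 11 measured lay below 0, with a median of −0.34. Of 10281 placed measured genes outside the members, 48.3% lay below 0. At 1.5-fold 4 of the 11 were lower and 1 was higher, beside 8.14% and 6.5% of all measured genes. TFPI, the inhibitor of the tissue factor pathway, stood at 54.5 FPKM in wild type against 33.8 FPKM in the knockout-labelled library (−0.67), SERPINF1, pigment epithelium-derived factor, at 18.2 and 11.3 FPKM (−0.65), and CSTA, cystatin A, which blocks cysteine cathepsins, at 9.43 and 6.18 FPKM (−0.54). Among the serine proteases 4 of 8 lay above 0. DPP4, a surface dipeptidyl peptidase, stood at 21.5 and 32.9 FPKM (0.59) and PCSK7, a proprotein convertase, at 7.00 and 10.9 FPKM (0.57). The other cathepsins and legumain had a median of 0.0008, with 5 above and 4 below 0. Those at or above 5 FPKM with the largest ratios were CTSA at 248 and 276 FPKM (0.15), CTSS at 17.8 and 21.0 FPKM (0.22) and LGMN at 13.7 and 16.1 FPKM (0.21). The largest ratios of the list were negative and belonged to genes under 5 FPKM, named after their values were seen: CTSK, a collagen-cutting cathepsin, at 2.71 and 1.44 FPKM (−0.60) and CTSO at 4.91 and 2.997 FPKM (−0.56). BMP1, which trims procollagens, stood at 10.5 and 13.7 FPKM (0.35), and ADAM28 at 6.70 and 8.43 FPKM (0.29).

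**Figure D4:**
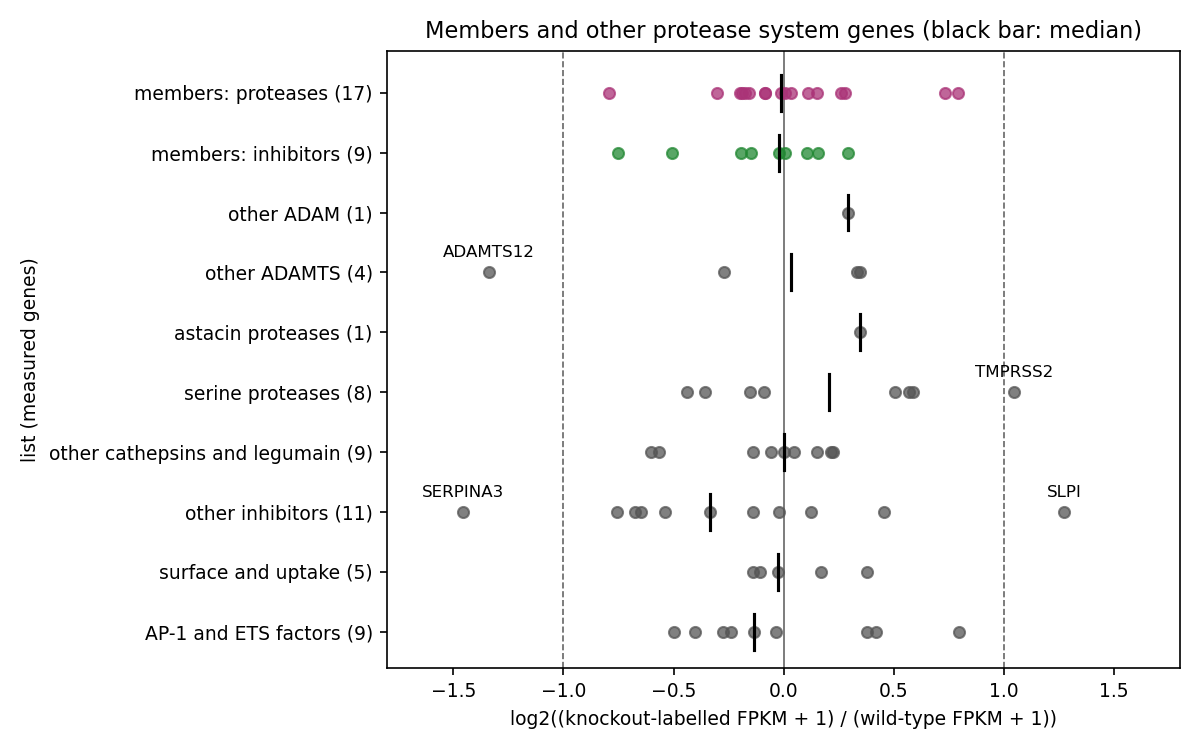
The log2 ratio of each measured gene (1 point), knockout-labelled over wild type with 1 FPKM added to both, for the member proteases and inhibitors and for 8 lists of other protease system genes, with the number measured in brackets; black bars are medians and dashed lines mark 2-fold. All members lie inside the dashed lines, and ADAMTS12, SERPINA3, TMPRSS2 and SLPI lie outside them.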

How the data were processed

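The members and gene lists were chosen with earlier results of these data known. Libraries were made from poly-A RNA with 12 cycles of PCR and read as pairs of 100 bases, per the labels' protocols. Build hg38 and Bowtie 0.12.2 come from the submitters' processing notes, with no role. The deposited values are FPKM per transcript start, end or splicing event, per the file headers. Which program and annotation made them, and whether strand was used, is not given in the sources used here.

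Events listed more than once were used once, 9201 in wild type against 9181 in the knockout-labelled library. Events of loci with several genes went to the gene with a GENCODE 29 exon boundary at the junction, and 2.47% and 2.45% of events could not be assigned. A gene's value was the larger of its summed start and summed end FPKM. Genes of at least 1 FPKM in either library were measured, and a gene was called at 2-fold on log2(FPKM + 1). Without replicates or counts there was no test, interval or depth.

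All measured members are named. Of each list of other genes, up to 3 were named, with the largest ratio in size among those of at least 5 FPKM and above 0 in both libraries. Exon inclusion is the share of the including form in the FPKM of the including and skipping forms, compared where these sum to at least 5 FPKM in each library. Exons that differed by 10 points or more were named, as were starts and ends whose share differed by 20 points. For these shares, starts and ends with the same splice junction were summed. Promoters are RefSeq (GRCh38.p14) and exons GENCODE 29. Python 3.11.15, numpy 2.4.6, pandas 2.3.3 and matplotlib 3.10.9 were used, and the procedure was tested on simulated data. Some results are not reported here.

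Alternatives were another pseudocount, start or end events alone, the largest event, the mean of both sums, rows that name 1 gene, other scalings, minimum levels and thresholds, and leaving out genes listed at 0.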

Additional observations from a re-analysis of the deposited data

How the results depend on the processing

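Of 14 alternatives, 2 were chosen after seeing the data: genes with the same starts and ends in both libraries, and genes whose sums agree within 5%. The count of members beyond 2-fold, 0 in each direction, became 2 higher with rows that name 1 gene (CTSB at 8.34 and ADAM12 at 1.39, whose wild-type rows lie in loci of several genes) and 1 lower with end events alone (PLAT at −2.74). At 1.5-fold it was 2 higher and 2 lower. The protease median stayed within 0.1. The inhibitor median was −0.15 with end events alone, with the largest event and where sums agree, and the difference of the medians was 0.13 with the largest event and 0.23 where sums agree. The other system genes, 2 higher and 2 lower, became 4 higher with the largest event, 4 higher and 6 lower at 1.5-fold, and 1 higher and 1 lower with a minimum of 5 FPKM, with the same starts and ends, and where sums agree. Each member has a value under 9 to 13 of the alternatives. The sign was the same under all of a member's own for 21 members, and differed in at least 1 for ADAM10, ADAM12, PLAT, CTSB, CTSL, TIMP2 and SERPINB6. Across the alternatives that gave a value, MMP1 lay between 0.72 and 0.79, MMP14 between −0.85 and −0.74, MMP24 between 0.78 and 0.84 and TIMP4 between −0.86 and −0.75. Alternatives that only select genes, such as a minimum level, cannot move a member's ratio. A kept sign or a narrow range was thus partly fixed in advance. MMP1, MMP24 and TIMP4 had equal start and end sums, and only the other pseudocount and the scalings moved their ratios. For all genes the counts, 311 higher and 411 lower, were 448 and 576 with a pseudocount of 0.1, 461 and 499 with end events alone, 495 and 567 with rows that name 1 gene, 476 and 598 scaled to equal totals, 164 and 234 with a minimum of 5 FPKM, 704 and 881 at 1.5-fold, 126 and 212 without genes listed at 0, 37 and 71 with the same starts and ends, and 127 and 187 where sums agree. The causes were not tested. No paired analysis was possible because each genotype has 1 library. Without counts, what depth limits cannot be given, and low members are the least certain.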

Other observations

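Of 7 genes that hold or clear proteases at the surface 5 were measured, with a median log2 ratio of −0.026. S100A10 and ANXA2, which together bind plasminogen and its tissue-type activator, stood at 1364 and 1042 FPKM in wild type and at 1536 and 1023 FPKM in the knockout-labelled library (log2 ratios 0.17 and −0.026, the latter gene named after its values were seen). CD63, a surface partner of TIMP1, stood at 729 and 677 FPKM (−0.11), and LRP1, the uptake receptor for complexes of proteases and serpins, at 29.1 and 26.3 FPKM (−0.14). SORL1, a sorting receptor named after its values were seen, was low at 1.06 and 1.69 FPKM (0.38), and HPSE and MRC2 stayed below 1 FPKM in both libraries.

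AP-1 and ETS factors, which are known to act on promoters of several MMP genes, did not share a direction. Of 9 measured, 3 lay above and 6 below 0, with a median log2 ratio of −0.14. FOS stood at 5.18 FPKM in wild type against 9.74 FPKM in the knockout-labelled library (0.80), ETV4 at 33.6 and 45.3 FPKM (0.42) and ETV5 at 43.0 and 30.1 FPKM (−0.50). FOSL1, named after its values were seen, stood at 77.5 and 58.4 FPKM (−0.40).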
